A study of Mus musculus with 4 samples.

Results

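The genes of 10 transcription factors of epithelial-to-mesenchymal transition (EMT) and of the epicardium were examined in ATAC-seq of mouse hearts at embryonic day 9.5 (E9.5). They were taken as a fixed list of names, *Snai1*, *Snai2*, *Twist1*, *Twist2*, *Zeb1*, *Zeb2*, *Tcf21*, *Wt1*, *Prrx1* and *Sox9*, out of 21938 annotated protein-coding genes. The hearts were WT or *Smyd1-KO*, a conventional null for SMYD1, a histone methyltransferase restricted to striated muscle. Because the allele is null in every cell of the embryo, the knockout is not limited to cardiomyocytes. There were 4 libraries, 2 per genotype, each from 4 pooled hearts and 40000 viable cells. Peak calling pooled the libraries within each genotype, so the data hold 1 value per peak, with no replicate error and no test between genotypes. A peak whose tag count was 2-fold or more higher in *Smyd1-KO* than in WT hearts is called gained (25745 peaks), and one with the opposite difference is called WT-enriched. The score of a gained peak is the tag value that the peak caller gave it in the pooled *Smyd1-KO* libraries. Many scores are not whole numbers, so they are an averaged or scaled value and not a plain read count, and "tags" is used here as the unit of that value only. Each peak is 149 bp wide. A gene was given every peak that overlapped its body or lay within 10 kb of one of its transcription start sites (TSSs).

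In EMT, epithelial cells lose their junctions and polarity and become migratory mesenchyme. Transcription factors of the Snail, ZEB and TWIST families drive it, in part by repressing E-cadherin through E-box sequences. In the heart the process forms the cushion mesenchyme from endocardium and, later, fibroblasts and mural cells from the epicardium. TCF21 and WT1 mark the epicardium and its progenitors, PRRX1 marks mesenchyme, and SOX9 is expressed in cushion mesenchyme. The hearts were dissociated whole, so a larger share of cells of a type and more open chromatin per cell cannot be told apart in these values.

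Of the 10 genes, 8 had at least 1 gained peak, with 16 gained peaks in all, and *Tcf21* and *Prrx1* had none. Over all protein-coding genes, 13733 of 21938 had a gained peak by the same rule, or 62.6%. A gained peak within 1 kb of a TSS was found for 7 of the 10 genes, against 48.1% of protein-coding genes. At least 3 gained peaks were found at *Snai1*, *Zeb2* and *Wt1*, against 12.0% of protein-coding genes. No member had a WT-enriched peak, and such a peak was found for 0.155% of protein-coding genes, or 34 genes, so a count of 0 among 10 genes says little. With the lengths searched taken into account, the members had 2.54 gained peaks per 100 kb and the merged windows of all protein-coding genes had 1.59. Genes in the list differed in room for peaks, since the searched window was 20.0 kb at *Snai1*, *Snai2*, *Twist1* and *Sox9* and 193.6 kb at *Zeb1*. Peaks of like height in both genotypes are outside these lists, so a gene without a gained peak may be open or closed in both.

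The sequences of the gained peaks within 1 kb of a TSS are shown because 7 of the 10 genes had a peak there, and because these starts differ in composition. The *Zeb1* peak is not shown. The sequences are read 5′ to 3′ in the direction of the gene from GRCm38, the sequence of mm10. Only bases before the annotated 5′ end of the gene are printed where a peak runs past it, which leaves 24 of the 149 bases at *Twist1*, 129 at *Wt1* and 138 at *Sox9*. Capitals mark fixed strings found on either strand: the Snail and ZEB E-box CAGGTG, the GC box GGGCGG bound by SP and KLF factors, the TEAD string GGAATG, the GATA string AGATAA, the CTCF core CCACNAGGG and the CCAAT box, whose letters are CCAAT and which was added after the sequences had been seen.
*Snai1*, chr2:167537981-167538129, plus strand: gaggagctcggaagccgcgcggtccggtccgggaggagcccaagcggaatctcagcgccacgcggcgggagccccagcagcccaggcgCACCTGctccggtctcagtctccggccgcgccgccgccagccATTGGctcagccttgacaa
*Snai2*, chr16:14705665-14705813, plus strand: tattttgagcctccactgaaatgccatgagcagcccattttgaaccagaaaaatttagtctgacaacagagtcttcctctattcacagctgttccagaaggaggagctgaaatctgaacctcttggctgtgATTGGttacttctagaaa
*Twist1*, chr12:33957647-33957670, plus strand: cccgcgcccaactctcagacacct
*Twist2*, chr1:91801163-91801311, plus strand: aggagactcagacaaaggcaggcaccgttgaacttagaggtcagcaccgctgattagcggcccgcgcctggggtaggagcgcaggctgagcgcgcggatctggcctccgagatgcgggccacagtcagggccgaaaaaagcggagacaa
*Wt1*, first promoter, chr2:105126400-105126528, plus strand: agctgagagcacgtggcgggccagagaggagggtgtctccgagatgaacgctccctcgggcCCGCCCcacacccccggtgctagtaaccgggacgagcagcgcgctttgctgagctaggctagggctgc
*Wt1*, internal start, chr2:105162844-105162992, plus strand: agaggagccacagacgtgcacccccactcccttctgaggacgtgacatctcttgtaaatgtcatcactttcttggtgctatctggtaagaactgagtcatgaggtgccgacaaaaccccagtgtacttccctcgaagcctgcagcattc
*Sox9*, chr11:112782086-112782223, plus strand: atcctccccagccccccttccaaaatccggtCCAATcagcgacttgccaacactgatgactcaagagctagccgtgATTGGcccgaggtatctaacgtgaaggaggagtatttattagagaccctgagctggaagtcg

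The *Snai1* peak held 18 CpG dinucleotides and had a GC content of 73.2%, whereas the *Snai2* peak held 0 and had a GC content of 42.3%. The peaks of *Twist1* and *Twist2* had GC contents of 76.5% and 63.1%. The E-box CAGGTG was present in the *Snai1* peak, on the minus strand, and 7.3% of all gained peaks within 1 kb of a protein-coding gene's TSS held it. It was the only member peak at a gene start with this string. The CCAAT box was in the peaks of *Snai1* and *Snai2* (1 each) and of *Sox9* (2), and in 25.2% of gained peaks within 1 kb of a protein-coding gene's TSS. The GC box was in the peaks of *Twist1* (in the part not printed), *Zeb1* and *Wt1*, against 53.8% of such peaks. These matches describe letters in a window of 149 bp and not bound sites.

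The score differed 5.71-fold among the 8 peaks at gene starts, and most were weaker than is usual for a gained peak at a promoter. The plot of scores by gene shows the 16 peaks. In the 8 peaks at gene starts the median score was 228.5 tags, against 420 tags in the 11331 gained peaks within 1 kb of a protein-coding gene's TSS (quartiles 264.5 and 639). Only *Snai1* and *Snai2* lay above that median, and 5 of the 8 peaks lay under the lower quartile. The 8 other member peaks had a median score of 91.75 tags, against 101.5 tags in the 8040 gained peaks of protein-coding windows farther than 1 kb from a TSS. Over all 16 peaks the median was 163.25 tags, against 255 tags in the 19371 gained peaks in windows of protein-coding genes and 180.5 tags in the whole gained list. The order against the whole list turned with the window, since the members' median was 196.25 tags with 3 kb in place of 10 kb and 198.5 tags without the gene body.

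**Figure D1:**
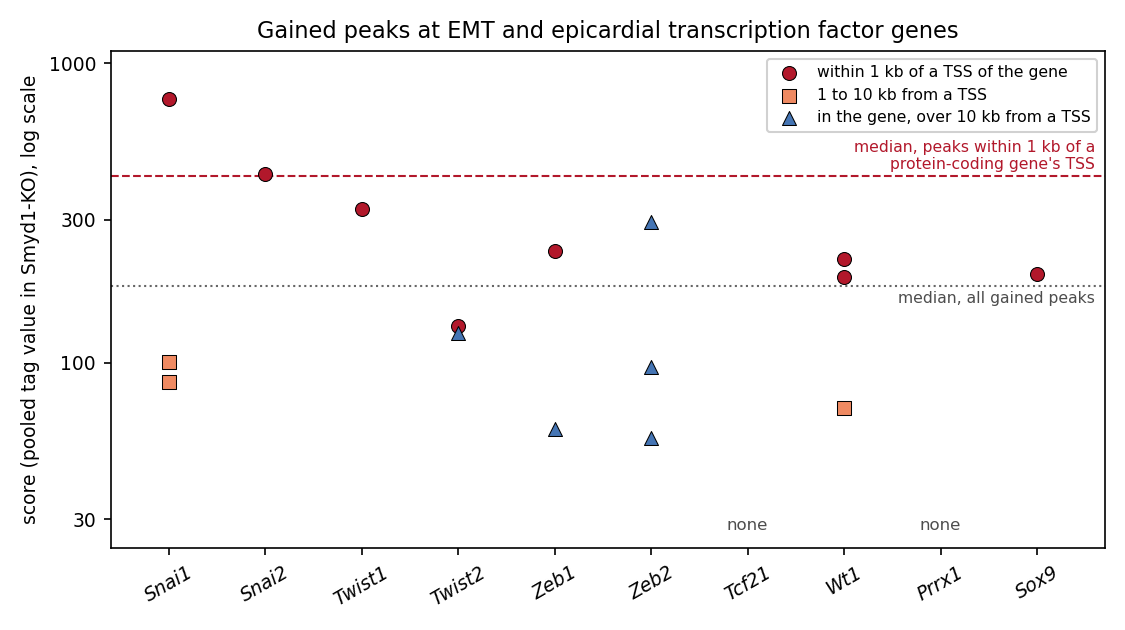
Score of each gained peak (pooled tag value in *Smyd1-KO* hearts, log axis) at each of the 10 genes, with symbols for the distance to the nearest TSS of the gene. The dashed line is the median of gained peaks within 1 kb of a protein-coding gene's TSS (420 tags) and the dotted line that of all gained peaks (180.5 tags); *Snai1* stands highest with 757 tags, and *Tcf21* and *Prrx1* have no peak.

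The Snail genes encode zinc-finger repressors of E-cadherin. *Snai1* (ENSMUSG00000042821.7, chromosome 2, 167538195 to 167542814, plus strand, 4.62 kb) had 3 gained peaks, all upstream of its single annotated TSS. The promoter peak ended 66 bp before the TSS and had 757 tags, higher than 92.2% of all gained peaks and at percentile 83.3 of those at promoters. The other peaks lay 5744 bp (167532303 to 167532451) and 9653 bp (167528394 to 167528542) upstream, with 100.5 and 86.5 tags. They were closer to a TSS of *Gm11474*, at 2991 and 6900 bp, than to that of *Snai1*. The peak at 9653 bp is the member peak nearest to the 10 kb limit, and the next gained peak outside the window, with 378 tags, lay 10.1 kb past the 3′ end of the gene.

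*Snai2* (ENSMUSG00000022676.7, chromosome 16, 14705852 to 14709385, plus strand, 3.53 kb) had 1 gained peak, which ended 39 bp before its TSS and had 427 tags, or percentile 51.1 among promoter peaks. This start thus came second in score although its peak held no CpG. Within 1 kb around the gene's 5′ end, however, the ratio of observed to expected CpG was 0.701. The nearest further gained peak was 199 kb away.

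The TWIST genes encode basic helix-loop-helix factors that bind E-boxes. *Twist1* (ENSMUSG00000035799.6, chromosome 12, 33957671 to 33959829, plus strand, 2.16 kb) had 1 gained peak, which covered the TSS and reached into the 5′ UTR. It had 326.5 tags, at percentile 35.1 of promoter peaks, and the nearest further gained peak lay 128 kb from the gene. *Twist2* (ENSMUSG00000007805.4, chromosome 1, 91801461 to 91848028, plus strand, 46.6 kb) had a peak 150 bp upstream of its TSS with 132.5 tags, the weakest of the member peaks at gene starts and at percentile 7.63 of promoter peaks. A second peak of nearly the same height, 126 tags, lay in an intron 29435 bp from the nearest TSS (91830905 to 91831053), and was 8390 bp from a TSS of *Gm29101*. The promoter peak of *Twist1* thus had 2.46 times the tags of that of *Twist2*, a ratio of single pooled values.

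The ZEB genes encode zinc-finger homeodomain repressors, and the map of peak positions shows intronic peaks far from a TSS in both. *Zeb1* (ENSMUSG00000024238.15, chromosome 18, 5591860 to 5775467, plus strand, 183.6 kb) had a peak in the first part of the gene (5591985 to 5592133) with 235.5 tags. It lay 73 bp from a TSS of *Zeb1* and 57 bp from one of *Gm10125*, with one of *Gm2238* also within 1 kb, so it cannot be given to *Zeb1* alone. Its GC content was 83.9%, the highest among the 16 peaks, and 27.5% of its bases were repeat-masked. The other *Zeb1* peak, in an intron near the 3′ end (5770717 to 5770865), had 60 tags.

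*Zeb2* (ENSMUSG00000026872.17, chromosome 2, 44983632 to 45117395, minus strand, 133.8 kb) was the only gene with gained peaks and none near a start. None of its 29 annotated start positions had a gained peak within 10 kb, and its 3 peaks lay in introns. The strongest had 295 tags. The others had 56 tags (45034568 to 45034716) and 97 tags (45001822 to 45001970), and were centred 82753 and 115499 bp past the 5′ end of the gene. A score of 295 tags is 2.91 times the median of 101.5 tags in gained peaks of gene windows beyond 1 kb of a TSS.

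The weakest *Zeb2* peak is shown, chosen after its values were seen, because it held the E-box that Snail and ZEB proteins bind. It held 0 CpG dinucleotides, and 27.5% of its bases were repeat-masked. It is printed on the minus strand, in the direction of the gene, with the E-box in capitals.
*Zeb2*, weakest intronic peak, chr2:45034568-45034716, minus strand: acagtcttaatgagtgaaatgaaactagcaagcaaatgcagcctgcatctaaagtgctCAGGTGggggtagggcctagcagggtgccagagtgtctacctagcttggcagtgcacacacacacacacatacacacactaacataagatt

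The E-box CAGGTG was found in 8.54% of all gained peaks. Among the 16 member peaks this E-box was in 2, a TEAD string in 2, a GATA string in 1 (the intronic *Wt1* peak) and the CTCF core in 0. Over all gained peaks the shares were 10.6% for the TEAD string, 8.87% for the GATA string and 2.05% for the CTCF core. The general E-box CANNTG, which many 149 bp windows hold, was in 7 of the 16 peaks and in 46.3% of all gained peaks.

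**Figure D2:**
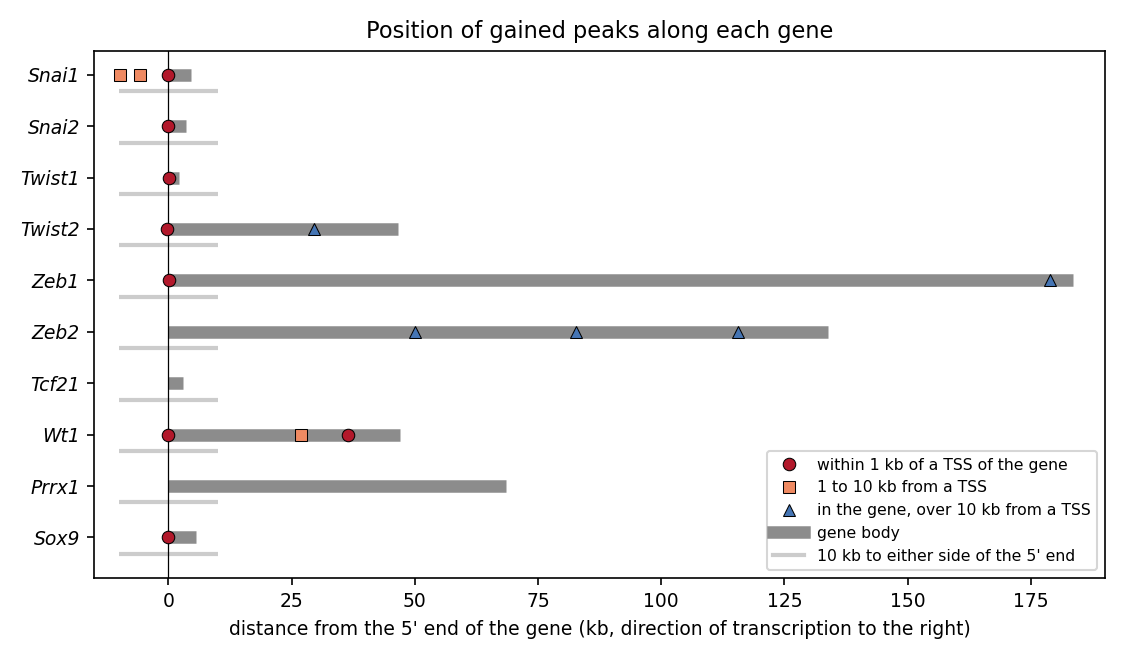
Position of the 16 gained peaks along the 10 genes, in kb from the 5′ end of each gene and drawn to scale with transcription to the right; grey bars are gene bodies and pale lines the 10 kb to either side of the 5′ end. Peaks of 7 genes sit at the 5′ end, whereas the 3 *Zeb2* peaks lie far inside the gene body.

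Among the epicardial factors, *Wt1* and *Tcf21* differed. *Wt1* encodes a zinc-finger factor that is required for the epicardium, and its gene (ENSMUSG00000016458.14, chromosome 2, 105126529 to 105173616, plus strand, 47.1 kb) had 3 gained peaks. The first covered the TSS at the 5′ end, with 221.5 tags (percentile 18.4 of promoter peaks), and TSSs of the antisense gene *Wt1os* and of *Gm27308* also lay within 1 kb of it. A peak of similar height, 194 tags, was centred 36389 bp into the gene, and its nearer edge lay 36 bp from the start of an internal transcript annotated as a retained intron. The third, in an intron (105153459 to 105153607), had 70.5 tags and lay 9201 bp from the nearest TSS. *Wt1* was the only member with gained peaks at separate annotated starts.

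*Tcf21*, a basic helix-loop-helix factor of epicardium-derived fibroblasts (ENSMUSG00000045680.8, chromosome 10, 22817281 to 22820174, minus strand, 2.89 kb), had no gained peak in its window of 20.0 kb. The nearest, 59.8 kb upstream, had only 34 tags. *Prrx1*, a homeobox gene of limb and heart mesenchyme (ENSMUSG00000026586.16, chromosome 1, 163245119 to 163313710, minus strand, 68.6 kb), had none in a window of 78.6 kb. The nearest to it, 89.9 kb upstream with 293.5 tags, covered the TSS of *Gorab*. *Sox9*, an HMG-box factor (ENSMUSG00000000567.5, chromosome 11, 112782224 to 112787760, plus strand, 5.54 kb), had 1 gained peak, which covered its TSS and had 198.5 tags (percentile 15.4 of promoter peaks). A TSS of *BC006965* lay within 1 kb of that peak.

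The promoters of the genes with no gained peak anywhere in their window are shown, chosen after the counts were seen, from RefSeq on GRCm38.p6 and cut at the 5′ end that GENCODE gives. The RefSeq windows of 300 bases had GC contents of 53.3% and 47.7% and held 8 and 6 CpG dinucleotides. They do not stand for every start without a gained peak, since *Zeb2*, which also had none at its start and has 4 RefSeq promoters that are not shown, had a CpG ratio of 0.706 around its 5′ end.
*Tcf21*, chr10:22820175-22820393, minus strand: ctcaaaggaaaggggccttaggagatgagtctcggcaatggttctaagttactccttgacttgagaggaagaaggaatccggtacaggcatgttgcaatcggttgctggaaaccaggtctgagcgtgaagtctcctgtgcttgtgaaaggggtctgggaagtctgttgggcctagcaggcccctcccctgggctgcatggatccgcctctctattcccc
*Prrx1*, chr1:163313711-163313900, minus strand: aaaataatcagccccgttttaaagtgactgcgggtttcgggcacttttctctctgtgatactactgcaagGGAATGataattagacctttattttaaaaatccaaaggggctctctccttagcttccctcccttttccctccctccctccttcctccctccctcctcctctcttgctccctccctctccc

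The *Prrx1* promoter held a TEAD string, present in 14.7% of the 32851 RefSeq promoters of this length. The *Tcf21* window held a GATA string in the part not printed, present in 11.2% of them.

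In a description chosen after the data were seen, the members with a gained peak at the start had more CpG there than *Tcf21* and *Prrx1*, with *Zeb2* as the exception. Within 500 bases to either side of the 5′ end, the ratio of observed to expected CpG was 0.469 at both *Tcf21* and *Prrx1*. It ranged from 0.657 at *Wt1* to 0.946 at *Zeb1* in the 7 genes with a gained peak within 1 kb of the 5′ end, and was 0.706 at *Zeb2*. Over all protein-coding genes the share with a gained peak within 1 kb of the 5′ end was 46.3% at ratios from 0.4 to 0.6, 69.4% from 0.6 to 0.8 and 79.6% from 0.8 to 1. The share thus rose with the CpG ratio over all genes, and the part of CpG content in the members' counts was not tested. The scores were low also by this measure, since the median of the strongest peak at the start was 491.5 tags in genes with a ratio from 0.6 to 0.8 and 546 tags from 0.8 to 1. Of the 7 genes, *Snai1* alone exceeded the median of its class.

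**Figure D3:**
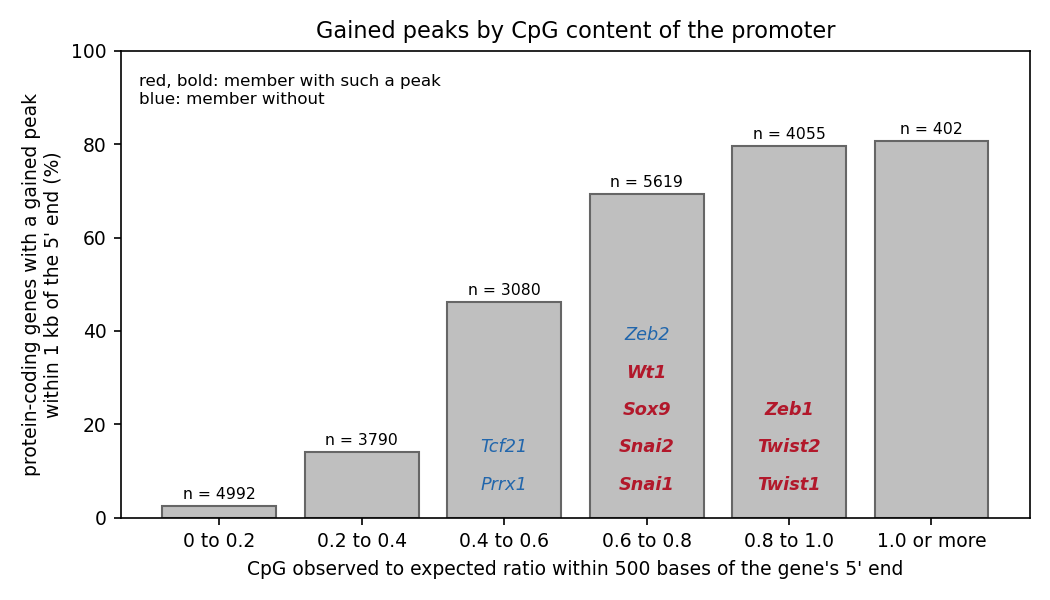
Share of protein-coding genes with a gained peak within 1 kb of the 5′ end (bars, percent, from 0) in classes of the CpG ratio of the promoter, with the number of genes above each bar. Names of the 10 genes stand in their class, in red where the gene has such a peak and in blue where it has none (*Tcf21*, *Prrx1* and *Zeb2*).

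All 8 peaks within 1 kb of a TSS were centred within 250 bp of it, as were 82.3% of gained promoter peaks, and 5 of the 8 were centred upstream, as were 62.9%. The median GC content was 65.1% in the 8 peaks near a TSS and 51.6% in the 8 others, and the median CpG ratio was 0.842 and 0.16. Single peaks departed from this, since the peak at the start of *Snai2* had the lowest GC content of the 16. Gained peaks at protein-coding promoters had medians of 66.4% and 0.797. Over the wider neighbourhood, also chosen after the data were seen, *Snai1* had 11 gained peaks within 100 kb of the gene, above the upper quartile of protein-coding genes (median 4, quartiles 2 and 7). *Zeb1*, *Zeb2* and *Wt1* had 5 each, *Tcf21* had 4, *Twist2* had 3, *Sox9* had 2, and *Snai2*, *Twist1* and *Prrx1* had 1 each. Within 500 kb, 7 of the 10 genes had from 4 to 12 gained peaks, while the median of protein-coding genes was 16. Values above that median were found at *Snai1* (35) and *Zeb1* (20).

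Other genes of the pathway were counted by the same rule. Of 12 other EMT regulators, 11 had a gained peak, with *Gsc* as the exception. *Id2*, an inhibitor of basic helix-loop-helix factors, had the strongest (860.5 tags), and *Tcf4*, an E protein, had the most (6 peaks). Of 6 regulators of the epithelial state, *Ovol1* (3 peaks, up to 568.5 tags), *Esrp1* and *Elf3* had a gained peak, and *Grhl2*, *Ovol2* and *Esrp2* had none. Of 10 EMT effectors, 6 had one. *Cdh2*, which encodes N-cadherin and is expressed in myocardium, had 6 peaks, the strongest with 510 tags, whereas *Cdh1*, which encodes E-cadherin, had none, as did *Cdh11*, *Mmp2* and *Ctnnb1*. Of 11 epicardial genes, 7 had one, with the strongest and the most at *Tgfbr3*, a TGF-beta co-receptor (474 tags, 5 peaks), and none at *Upk3b*, *Msln*, *Itga4* and *Bnc1*. Of 9 mesenchyme and fibroblast genes, only *Pdgfra* (593 tags), *Col1a1* (293 tags) and *Ddr2* (192 tags) had a gained peak, 1 each, and *Pdgfrb*, *Col3a1*, *Postn*, *Dcn*, *Acta2* and *Tagln* had none.

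The shares were thus 91.7% for the other EMT regulators, 50% for the epithelial-state regulators, 60% for the effectors, 63.6% for the epicardial genes and 33.3% for the mesenchyme and fibroblast genes, beside 80% for the 10 factors and 62.6% for all protein-coding genes. The median of each gene's strongest peak was 265.25 tags over the 8 factors with a peak and 442 tags over all protein-coding genes with a peak. In the other lists it was 229.5 tags for the epithelial-state regulators, 293 tags for the mesenchyme and fibroblast genes, 318 tags for the epicardial genes, 457 tags for the EMT effectors and 470 tags for the other EMT regulators. Among marker genes of cardiac cell types, all 8 cardiomyocyte markers, among them *Tnnt2*, *Myh6* and *Actc1*, had a gained peak, with a median strongest score of 474 tags. The same held for 4 of 6 endocardial and endothelial markers (median 111.25 tags, *Cdh5* and *Emcn* without). No gene of these lists had a WT-enriched peak. Because the lists hold only peaks that differ between genotypes, these counts are no check of which cells were sampled. The part of cell composition in the counts at the 10 genes was not tested.

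**Figure D4:**
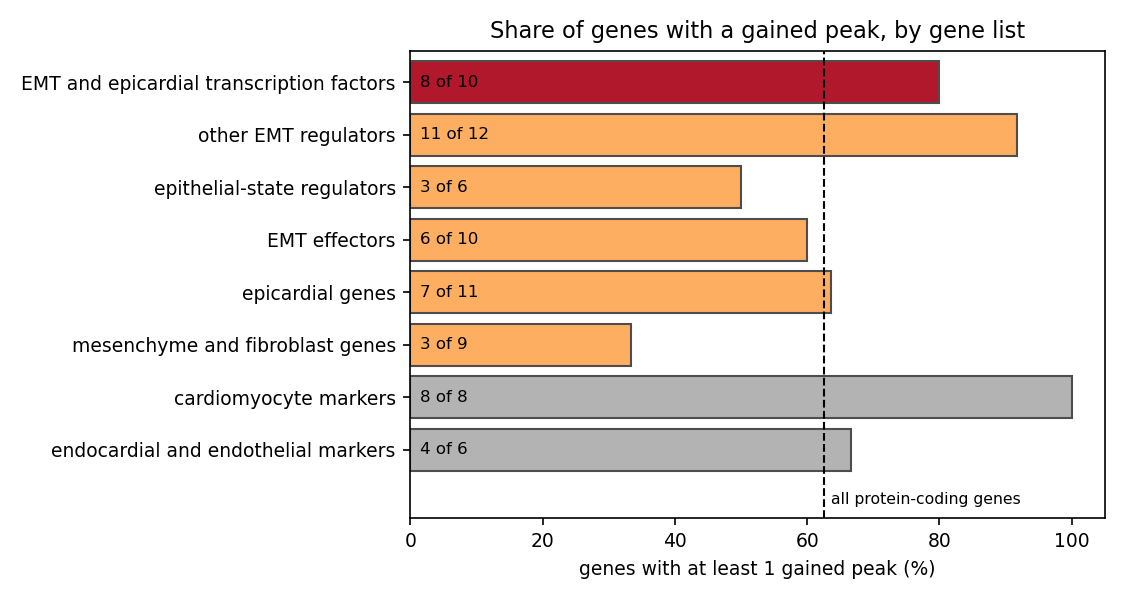
Share of genes with at least 1 gained peak (percent, from 0) in each gene list, with the counts in the bars; red is the list of 10 factors, orange other EMT and epicardial lists and grey the tissue markers. The dashed line marks 62.6%, the share over all protein-coding genes, and the mesenchyme and fibroblast genes have the lowest share plotted (33.3%).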

How the data were processed

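ATAC-seq reads were aligned by the authors to mm10 with BWA-MEM, and peaks were called with HOMER 4.10.3 on the combined libraries of each genotype, keeping peaks with at least a 2-fold difference in tags. The deposited values are a signal, the tag value of each peak in the pooled libraries as the authors obtained it, and many are not whole numbers. Whether they were scaled to a common depth, and how duplicates and the Tn5 offset were treated, is not given in the sources used here, and the depth behind each list is unknown, although 100000000 reads per sample are stated. Scores were therefore not compared between the lists.

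Peaks were assigned to GENCODE M21 genes, without the mitochondrial genome, by 1 base of overlap, and distances run from the nearer peak edge. Coordinates count from 1. Sequence was read with pysam 0.24.0 from GRCm38.p6, inside whose chromosomes every peak lay. RefSeq promoters matched 6 of the 10 members. The assignment and the motif search were tested on simulated data. No test was run, as replicates were pooled. The members and gene lists were chosen with earlier results of these data known. By rule, members were described with each gained peak within 3 kb of a TSS and the strongest of the others, sequence was printed for the strongest peak within 1 kb of a TSS except on chromosome 18, which holds *Zeb1*, and other lists were described by the strongest gene, the gene with most peaks and those with none. The remaining peaks, genes and sequences named were chosen after their values were seen. Alternatives were the distance, the TSS set, the gene body, a score minimum, the peak centre, nearest-gene assignment and a wider sequence window. Some planned items are not reported here.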

Additional observations from a re-analysis of the deposited data

How the results depend on the processing

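The count of 8 members with a gained peak was 8 with a distance of 3 kb, with TSSs of protein-coding transcripts or with the peak centre, and 7 without the gene body (*Zeb2* lost) or with peaks at or above the list's median score of 180.5 tags (*Twist2* lost). The 16 gained peaks were 8 with that score minimum and from 11 to 16 under the other settings. The median score of 163.25 tags moved to 196.25 tags with 3 kb and to 198.5 tags without the gene body, both above the list's median. The median GC content of 55.0% was 53.7% in 300 bases centred on each peak. No member had a WT-enriched peak within 100 kb either. No paired analysis was possible because the libraries of each genotype were combined before peaks were called, and for the same reason no replicate could be left out.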

Other observations

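The gained peaks next outside the members' windows were mostly weak. The nearest to *Tcf21*, *Twist1* and *Snai2* had 34, 35.5 and 38.5 tags, and those next to *Zeb2*, *Twist2*, *Sox9*, *Wt1* and *Zeb1* had from 76 to 120.5 tags. The exceptions were those next to *Snai1* (378 tags, 214 bp from a TSS of *Gm11476*) and *Prrx1* (293.5 tags, at the TSS of *Gorab*). The nearest WT-enriched peak lay 1083 kb from *Zeb2* and farther from every other member.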
